A study of Mus musculus with 31 samples.

Results

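The nuclear genes that encode subunits of the mitochondrial respiratory chain were followed in mouse Ly6C-high monocytes, the inflammatory monocytes that leave the blood to enter tumors. The genes were chosen by name from a table of RNA-seq counts. Symbols beginning with Nduf and a subunit letter were taken for complex I, Sdha to Sdhd for complex II, Uqcr for complex III, Cox4i to Cox8 for complex IV and Atp5 for complex V, and pseudogenes and Ndufaf assembly factors were left out. This gave 84 of the 24411 entries of the table, namely 37 genes of complex I, 4 of complex II, 8 of complex III, 18 of complex IV and 17 of complex V. After a filter on low counts 79 of them were tested. The other 5 were Ndufa4l2, Cox6a2, Cox7b2, Cox8b and Cox8c.

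The RNA came from C57BL/6J mice with no engineered allele named in the labels. Healthy blood stands for 3 libraries of monocytes from the blood of healthy mice. LLC blood stands for 3 libraries of blood monocytes from mice that carried a subcutaneous LLC tumor, and LLC tumor for 3 libraries of monocytes taken from such tumors. LLC is Lewis lung carcinoma, a transplantable mouse lung cancer line. All cells were sorted as CD11b+, Ly6G-, Ly6C-high and MHC-II-. The labels give neither age nor time after tumor injection, and they do not say whether the RNA libraries came from separate mice or pools, so p-values measure the spread between these libraries. The 3 comparisons share libraries in pairs and are not independent of each other. The remaining 22 of the 31 samples are chromatin profiles and were not analysed here.

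The respiratory chain passes electrons from NADH and succinate to oxygen and uses the energy to pump protons across the inner mitochondrial membrane. Complex I takes electrons from NADH, complex II from succinate, complex III hands them to cytochrome c and complex IV gives them to oxygen, while complex V lets protons flow back to make ATP. The core subunits carry the electrons or the catalytic sites. Accessory subunits surround them and are needed for assembly and stability. Some complex IV subunits exist as isoforms that differ between tissues or with oxygen supply. Further subunits are encoded in mitochondrial DNA, and those genes were not analysed here. Counts per gene measure RNA, not protein or respiration.

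Total counts ranged from 10457492 to 20706412 per library. Levels of subunit and list genes below are CPM (counts relative to the library's total) scaled with the TMM factors of the fit. Levels of cell markers are CPM of library totals without these factors. The factors lay between 1.03 and 1.07 in the 6 blood libraries. LLC tumor 1 stood apart with a factor of 0.798, against 1.00 and 0.968 in LLC tumor 2 and 3. The summed level of 6 monocyte markers was 31873 to 35730 CPM in healthy blood, 22451 to 25793 CPM in LLC blood and 14129 to 18420 CPM in LLC tumor, and none of the 6 was at 0. Most of that sum was Lyz2, with 25713 to 29077 CPM (healthy blood) against 6898 to 9308 CPM (LLC tumor), and Ly6c2 was also lower in tumor. Itgam went the other way, from 893 to 949 CPM in healthy blood to 3193 to 3720 CPM in LLC tumor, and Cd14 from 40.8 to 52.2 CPM to 1378 to 2010 CPM. Markers of other cells moved with the groups. The sum of 5 NK cell markers was 164 to 331 CPM in healthy blood, 32.0 to 44.2 CPM in LLC blood and 5.41 to 15.2 CPM in LLC tumor. The sum of 7 erythroid markers was 222 to 650, 168 to 920 and 1.08 to 3.46 CPM in the same order, and 2 of the 7 were at 0 in LLC tumor. The sum of 4 fibroblast markers stayed between 2.95 and 14.7 CPM in healthy blood, ran from 1.25 CPM in LLC blood 2 to 404 CPM in LLC blood 1, and reached 841 to 3646 CPM in LLC tumor. The sum of 5 platelet markers was 138 to 222 CPM in LLC tumor and at most 19.6 CPM in blood. Ppbp and Pf4 carried that rise, while Itga2b went from 2.22 to 5.77 CPM (healthy blood) down to 0.722 to 1.77 CPM (LLC tumor), and Gp9 and Gp1bb stayed at or under 1.35 CPM. The part of these differences in the results below was not tested. In bulk RNA, fewer cells of a type and less RNA per cell cannot be told apart.

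RefSeq promoter windows (250 bases before to 50 bases after the start, GRCm38.p6) were matched for 69 of the 84 genes. Where a gene had more than 1 promoter entry, as 4163 genes did, the first was used. A window can therefore lie inside the span of its gene, as for Ndufs7, whose span begins at chr10:80249105. The known regulators of these genes include NRF1, ETS factors such as GABP, and YY1, and short motif cores were searched on both strands. The NRF1 core CGCANGCGC was present in 31.9% of the 69 promoters and in 6.59% of all 27025 promoters of the same length. The ETS core CCGGAAG was present in 21.7% against 9.12%, and the YY1 core AAGATGGC in 14.5% against 2.88%. The hypoxia response core ACGTG was present in 27.5% against 19.7%. Matches of different motifs shared no base in any of the 69. By complex, the NRF1 core was found in 9 of 32 promoters for complex I, 2 of 3 for complex II, 3 of 5 for complex III, 1 of 13 for complex IV and 7 of 16 for complex V. The YY1 core was found in 7 of 32 for complex I and 3 of 16 for complex V, and in no promoter of complexes II, III and IV. The hypoxia response core was found in 6 of 32, 1 of 3, 1 of 5, 3 of 13 and 8 of 16 for complexes I to V. A match is a description of letters and not of a bound factor.

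Promoters of 5 genes are printed because their genes behaved differently in these data while several share a motif. Uqcrc1, Sdhd and Cox6a1 all hold the NRF1 core, and in tumor cells against LLC blood the first fell, the second rose and the third did not pass the test. Ndufs7 holds the YY1 core and fell in that comparison, and Ndufv3 holds the hypoxia response core and had the largest increase among the better expressed genes. Other genes with the hypoxia response core included Ndufb10, Sdha and Uqcr11, which fell in that comparison, and Atp5d, which rose. Each printed promoter runs 5′ to 3′ on the strand of its gene, with every match of the motif named in capitals.
Uqcrc1, NRF1 core, chr9:108936398-108936697, plus strand: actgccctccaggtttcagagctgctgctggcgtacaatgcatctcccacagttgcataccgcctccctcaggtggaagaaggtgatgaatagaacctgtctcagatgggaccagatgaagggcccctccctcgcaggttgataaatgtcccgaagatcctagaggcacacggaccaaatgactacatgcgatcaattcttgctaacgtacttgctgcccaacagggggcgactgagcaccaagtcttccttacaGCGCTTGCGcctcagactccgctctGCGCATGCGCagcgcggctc
Sdhd, NRF1 core, chr9:50603800-50604099, minus strand: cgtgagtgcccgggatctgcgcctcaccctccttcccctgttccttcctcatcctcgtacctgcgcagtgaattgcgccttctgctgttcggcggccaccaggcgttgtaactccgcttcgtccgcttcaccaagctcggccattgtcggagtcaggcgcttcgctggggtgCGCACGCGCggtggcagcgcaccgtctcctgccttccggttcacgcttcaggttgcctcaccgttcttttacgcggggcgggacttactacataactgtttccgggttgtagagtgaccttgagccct
Cox6a1, NRF1 core, chr5:115348909-115349208, minus strand: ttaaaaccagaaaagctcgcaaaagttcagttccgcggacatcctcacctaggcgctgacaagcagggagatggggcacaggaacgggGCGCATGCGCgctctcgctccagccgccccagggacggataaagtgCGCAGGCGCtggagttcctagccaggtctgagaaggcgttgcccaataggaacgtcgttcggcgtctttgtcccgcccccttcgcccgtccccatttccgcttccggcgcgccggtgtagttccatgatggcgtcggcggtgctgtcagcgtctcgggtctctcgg
Ndufs7, YY1 core, chr10:80249199-80249498, plus strand: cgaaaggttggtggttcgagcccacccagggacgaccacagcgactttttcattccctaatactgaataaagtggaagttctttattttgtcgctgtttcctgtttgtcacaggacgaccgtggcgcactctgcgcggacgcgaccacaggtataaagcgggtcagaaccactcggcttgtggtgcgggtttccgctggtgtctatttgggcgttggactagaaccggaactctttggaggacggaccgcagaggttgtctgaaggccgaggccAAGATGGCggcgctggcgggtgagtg
Ndufv3, hypoxia response core, chr17:31519865-31520164, plus strand: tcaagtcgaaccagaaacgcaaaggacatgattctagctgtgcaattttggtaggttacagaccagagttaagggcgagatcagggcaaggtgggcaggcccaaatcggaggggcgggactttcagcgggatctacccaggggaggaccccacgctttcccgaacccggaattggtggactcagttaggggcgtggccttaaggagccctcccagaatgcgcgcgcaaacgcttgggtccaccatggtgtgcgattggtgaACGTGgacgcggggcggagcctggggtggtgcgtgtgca

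The subunit genes as a whole moved little in comparison with other genes. A gene was called when its adjusted p from edgeR's quasi-likelihood test was under 0.05, and a log2 fold change of 1 is a 2-fold difference. In LLC blood against healthy blood 0 of the 79 tested genes rose and 12 fell, where 14.0% of all 12337 tested genes rose and 9.61% fell. At unadjusted p under 0.05 the counts were 2 and 19, and DESeq2 called 3 higher and 14 lower. In LLC tumor against LLC blood 6 rose and 23 fell, against 29.6% and 31.7% of all tested genes. In LLC tumor against healthy blood 5 rose and 36 fell, against 33.5% and 33.0%. Called in either direction were 15.2%, 36.7% and 51.9% of the subunit genes in these comparisons, and 23.6%, 61.3% and 66.5% of all tested genes. The lower calls alone made up 15.2%, 29.1% and 45.6% of the subunit genes. Without LLC tumor 1 the counts were 7 higher and 36 lower against LLC blood and 6 higher and 56 lower against healthy blood, and without LLC tumor 2 there were 11 higher against LLC blood.

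The changes were small. No subunit gene was called with at least a 2-fold change in LLC blood against healthy blood, where 3.24% of all tested genes were called higher and 2.99% lower at that size. Between LLC tumor and LLC blood 2 were higher (background 17.3%) and 2 lower (11.4%), and in LLC tumor against healthy blood 2 were higher (19.7%) and 2 lower (12.7%). These were the same 4 genes both times, namely Cox4i2 and Cox7a1 upward and Cox6b2 and Atp5sl downward. Cox4i2 and Cox7a1 reached the low-count cutoff in the 3 LLC tumor libraries and in 0 blood libraries, so they entered the test through the group where they are high, and their calls are given as a description. The middle 50% of the log2 fold changes spanned 0.23, 0.33 and 0.37 among the subunit genes in the 3 comparisons and 0.54, 1.15 and 1.29 among all tested genes. Among tested genes averaging at least 20 CPM over the libraries compared it spanned 0.43, 0.87 and 0.97. Of the subunit genes 73, 71 and 72 reached that mean. Within 0.5 log2 units of 0 lay 97.5%, 86.1% and 76.0% of the subunit genes and 72.6%, 46.0% and 42.3% of all tested genes.

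The median log2 fold change of the subunit genes was -0.12 in LLC blood against healthy blood, -0.12 in LLC tumor against LLC blood and -0.22 in LLC tumor against healthy blood. Over all tested genes it was -0.01, -0.03 and -0.00. The zero line itself moved with the scaling. On library totals alone the median of all genes shifted to -0.23 in LLC tumor against LLC blood and -0.17 in LLC tumor against healthy blood. The share of called subunit genes that were higher moved with it. For LLC tumor against LLC blood it was 20.7% in the main analysis, 32.1% with RLE factors, 31.0% with DESeq2 and 7.41% on library totals. For LLC blood against healthy blood it was 0% in the main analysis, 13.3% on library totals, 17.6% with DESeq2 and 12.1% with limma-voom.

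**Figure D1:**
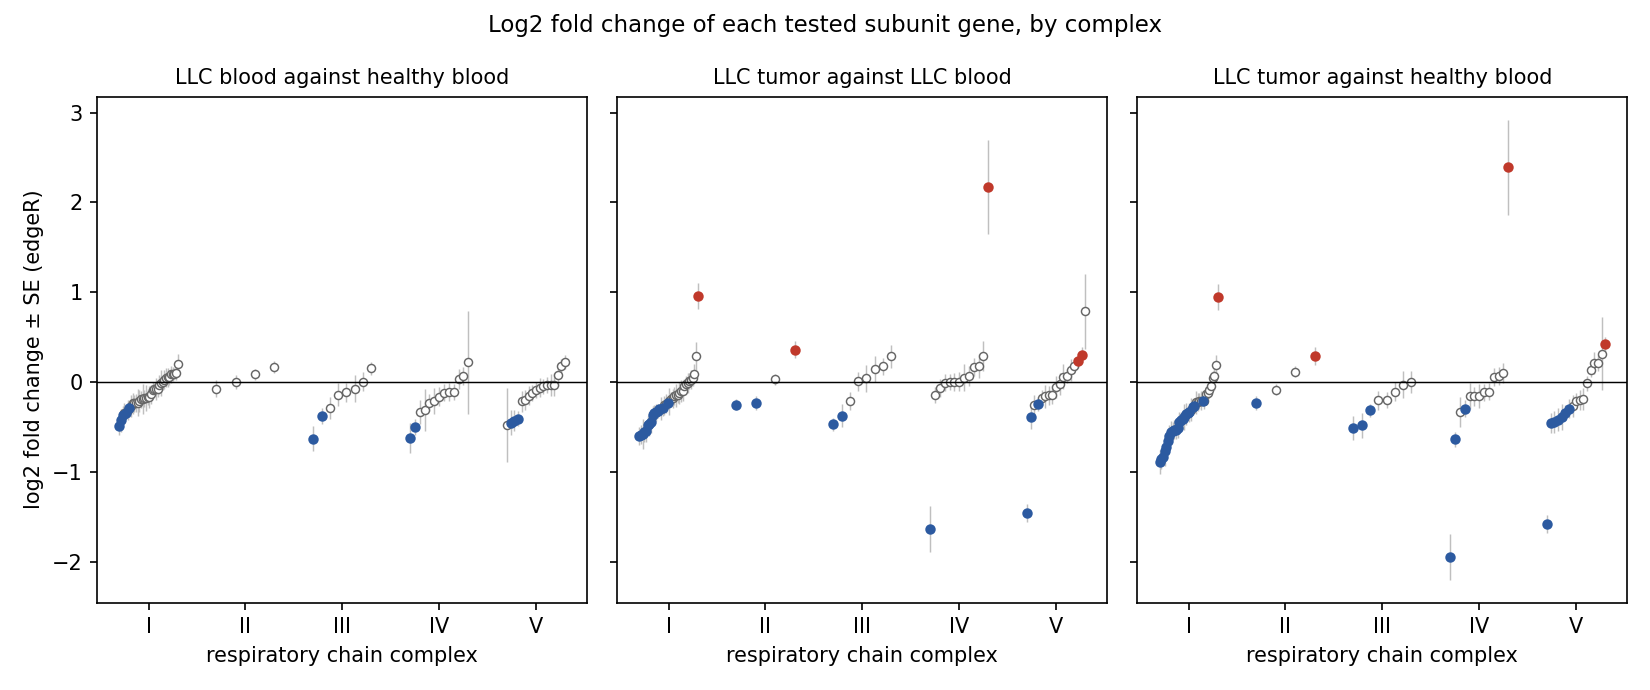
Log2 fold change of each tested subunit gene with its standard error, sorted within its complex, in the 3 comparisons. Blue points were called lower, red points higher and open points were not called. Cox4i2, which had 0 counts in all blood libraries, is left out. Most points lie within 0.5 log2 units of 0, and complex I holds most of the blue points in the tumor panels.

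The complexes differed in how many of their genes were called. In LLC tumor against healthy blood 22 of 36 tested complex I genes fell and 1 rose, where 33.0% of all tested genes fell and 33.5% rose. The median log2 fold change was -0.34, and it was -0.52 on library totals and -0.14 with a trend over the genomic span of genes subtracted. The counts were 1 higher and 1 lower of 4 for complex II (median 0.02), 0 and 3 of 8 for complex III (-0.20), 2 and 3 of 14 for complex IV (-0.13) and 1 and 7 of 17 for complex V (-0.21). Against LLC blood 15 complex I genes fell and 1 rose (median -0.22), where 31.7% of all tested genes fell and 29.6% rose. In that comparison the counts were 1 higher and 2 lower for complex II (-0.10), 0 and 2 for complex III (0.03), 2 and 1 for complex IV (0.03) and 2 and 3 for complex V (-0.05). In both tumor comparisons the 2 higher complex IV genes were Cox4i2 and Cox7a1, which entered the test through the tumor group. The lower complex V genes include Atp5sl, an assembly factor by its known role. From healthy blood to LLC blood 5 of 36 complex I genes fell (median -0.16) and 2 of 8 of complex III (-0.13). Also lower were 2 of 14 of complex IV (-0.14) and 3 of 17 of complex V (-0.08). None of complex II passed (0.05), and 9.61% of all tested genes fell. Differences between complexes were not tested.

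Summed levels were also compared by complex. Complex I genes summed to 1999, 2082 and 2141 TMM-scaled CPM in healthy blood and to 1942, 1879 and 1944 CPM in LLC blood, and the tumor libraries held 1866, 1518 and 1611 CPM. Every LLC tumor library lay below every blood library. Complex III genes held 791, 804 and 850 CPM in healthy blood, then 744, 715 and 714 CPM in LLC blood, then 801, 607 and 639 CPM in tumor. Here LLC tumor 1 lay within the healthy range and the other tumor libraries below both blood groups. Complex IV genes summed to 1582, 1576 and 1611 CPM, then 1390, 1324 and 1385, then 1625, 1230 and 1309. The mean changed by -14.0% from healthy to LLC blood, without overlap, while LLC tumor 1 lay above all blood libraries. Complex V genes changed by -1.22% in LLC blood and -3.53% in LLC tumor relative to healthy blood, and complex II genes by 4.49% and 1.05%.

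On library totals, without TMM factors, LLC tumor 1 joined the other tumor libraries. All 84 genes then summed to 6255, 6283 and 6410 CPM in LLC tumor, 7640 to 7699 CPM in LLC blood and 7802 to 8205 CPM in healthy blood, with no overlap between groups. Relative to healthy blood the tumor sums on that scale changed by -29.1% for complex I, -10.3% for complex II, -26.3% for complex III, -23.1% for complex IV and -14.8% for complex V. On the TMM scale the changes were -19.7% for complex I, -16.3% for complex III and -12.7% for complex IV. Complex I had the largest drop and complex II and V the smallest on both scales.

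**Figure D2:**
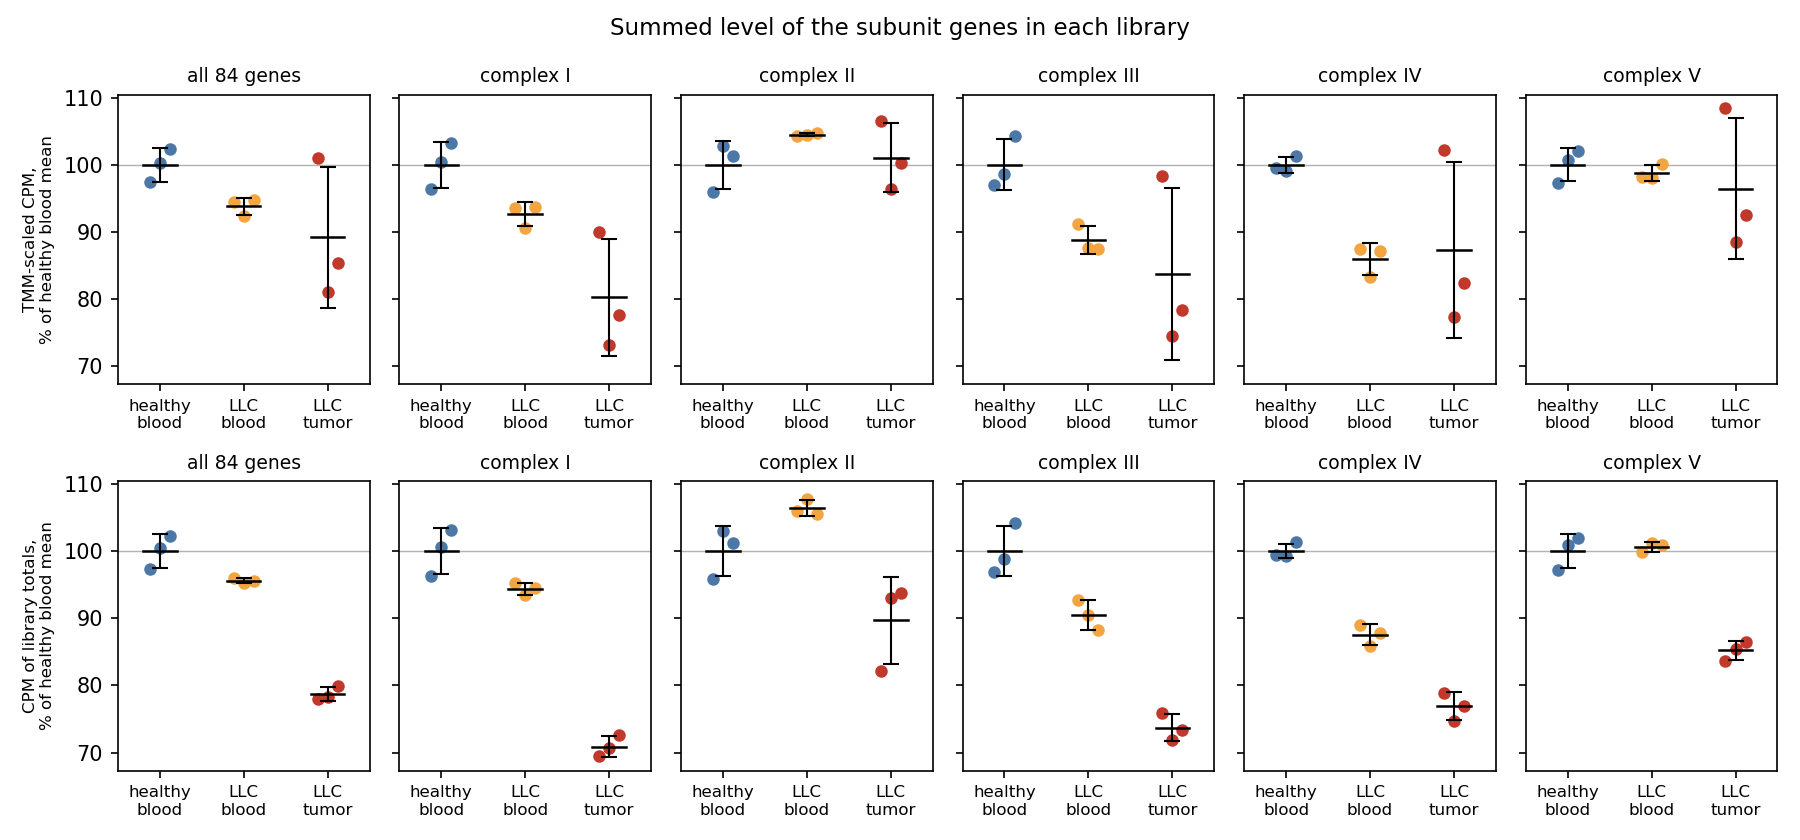
Summed level of all 84 genes and of each complex in each library, as a percentage of the healthy blood mean. Points are libraries, and bars are the mean and SD over 3 libraries. The upper row uses TMM-scaled CPM and the lower row CPM of library totals. LLC tumor 1 is the high tumor point of most upper panels and lies with the other tumor libraries below, except for complex II.

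The 12 genes that fell in LLC blood against healthy blood were spread over the chain. Most encode small or accessory subunits. Cox7a2l, grouped here with the common subunits of complex IV, had 332, 321 and 335 CPM in healthy blood and 238, 227 and 236 CPM in LLC blood. The groups did not overlap, and the log2 fold change was -0.50 ± 0.09 (SE, n = 3 libraries per group, edgeR adjusted p = 0.0037). Ndufa6, an accessory subunit of the matrix arm of complex I, had 96.1, 102 and 106 CPM in healthy blood and 73.6, 72.8 and 70.7 CPM in LLC blood. It fell by 0.48 on the log2 scale (SE 0.10, edgeR adjusted p = 0.0097). Atp5g2, a gene for the c ring that turns with the proton flow, had 131, 129 and 136 CPM and then 97.0, 99.8 and 102 CPM. It fell by 0.40 (SE 0.08, edgeR adjusted p = 0.0066). These 3 calls held in each of the 18 alternative fits.

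The other 9 calls in blood each failed in at least 2 of the 9 fits that left out a library. Uqcrh, the hinge protein that helps cytochrome c meet complex III, had 161, 174 and 194 CPM in healthy blood and 117, 112 and 113 CPM in LLC blood. Its log2 fold change of -0.63 ± 0.14 (edgeR adjusted p = 0.012) was the largest, and the call was lost without healthy blood 3 and without LLC blood 3. Cox7c, a small complex IV subunit whose counts were not whole numbers in any of the 9 libraries, had 55.6, 62.9 and 78.4 CPM and then 45.3, 42.5 and 40.4 CPM. It fell by 0.62 (SE 0.17, edgeR adjusted p = 0.027). Uqcrfs1, the Rieske iron-sulfur protein of complex III, had 123, 118 and 123 CPM and then 95.3, 91.6 and 93.3 CPM. It fell by 0.38 (SE 0.09, edgeR adjusted p = 0.018). Atp5e, the epsilon subunit of the ATP synthase head, fell by 0.43 (SE 0.12, edgeR adjusted p = 0.030). The remaining 5 genes, Atp5l, Ndufc2, Ndufa7, Ndufb4 and Ndufa11, fell by between 0.29 and 0.45. The calls were lost without single healthy blood or LLC blood libraries and, for Atp5l and Ndufc2, also without LLC tumor 3. These 5 genes, Ndufa6 and Atp5g2 were named after their values were seen.

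No core subunit of complex I and no subunit of complex II passed the test in blood. Sdha, the flavoprotein of complex II, had 166, 183 and 177 CPM in healthy blood and 196, 200 and 196 CPM in LLC blood, with a log2 fold change of 0.17 ± 0.06 (edgeR adjusted p = 0.083). Atp5a1, the alpha subunit of the synthase head, went from 522, 545 and 549 CPM to 603, 646 and 642 CPM (0.23 ± 0.08, edgeR adjusted p = 0.071). Both pairs of groups do not overlap and both differences are upward, but neither passed the test. In this comparison 25.7% of all tested genes and 8.86% of the subunit genes lay upward without overlap. The number of blood calls changed with the libraries in the fit. It was 12 lower and 0 higher with all 9 libraries, 27 lower and 3 higher with only the 6 blood libraries, 33 lower and 1 higher without LLC tumor 1, 4 lower without LLC blood 2 or LLC blood 3, 7 lower without healthy blood 1 and 3 lower without healthy blood 3.

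**Figure D3:**
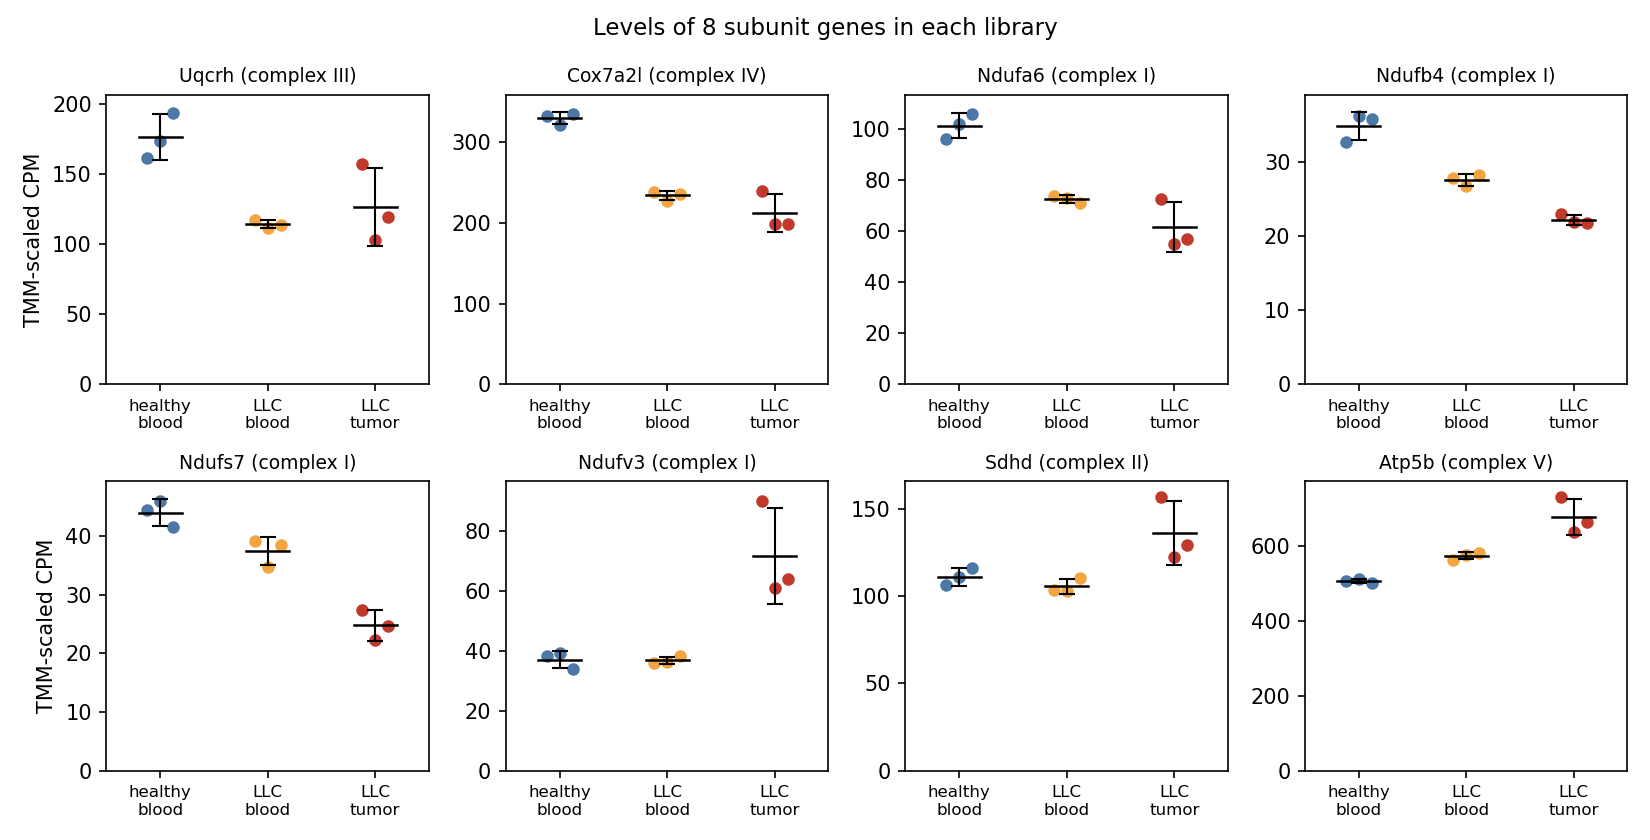
TMM-scaled CPM of 8 subunit genes in the 9 libraries. Points are libraries, and bars are the mean and SD over 3 libraries. Cox7a2l and Ndufa6 separate healthy blood from the other groups, Ndufs7 is lowest in LLC tumor, and Ndufv3 and Atp5b are highest there. LLC tumor 1 is the highest tumor library in each panel.

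In LLC tumor against LLC blood, 12 of 29 accessory subunits of complex I (41.4%) fell and 1 rose, against 31.7% and 29.6% of all tested genes. Ndufs7, the core subunit with the last iron-sulfur cluster before ubiquinone, had 39.2, 34.8 and 38.6 CPM in LLC blood and 27.4, 22.2 and 24.8 CPM in LLC tumor, with no overlap. Its log2 fold change was -0.60 ± 0.10 (edgeR adjusted p = 0.00055). Ndufs8, a core iron-sulfur subunit, went from 76.8, 70.7 and 70.8 CPM to 57.1, 41.4 and 50.0 CPM (-0.56 ± 0.11, edgeR adjusted p = 0.0016).

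The core subunits Ndufs1, Ndufv1, Ndufv2 and Ndufs3 did not pass. Ndufs1, which carries several iron-sulfur clusters, had 67.0, 78.2 and 78.7 CPM in LLC blood and 65.2, 81.9 and 75.7 CPM in LLC tumor (-0.01 ± 0.11, edgeR adjusted p = 0.95). Ndufv1, the flavoprotein that takes electrons from NADH, had a log2 fold change of -0.04 ± 0.08, Ndufv2 one of -0.15 ± 0.10 and Ndufs3 one of -0.19 ± 0.07 (edgeR adjusted p = 0.64, 0.22 and 0.051). Among accessory subunits Ndufb10 of the membrane arm fell from 72.4, 66.5 and 70.0 CPM to 52.2, 40.8 and 46.7 CPM, a log2 fold change of -0.58 ± 0.11 (edgeR adjusted p = 0.0011).

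Ndufv3 moved the other way. This small accessory subunit sits beside Ndufv1 and Ndufv2 at the NADH end of complex I. It had 38.1, 39.1 and 33.7 CPM in healthy blood, 36.0, 36.1 and 38.2 CPM in LLC blood and 90.0, 60.9 and 63.7 CPM in LLC tumor. All tumor libraries lay above all blood libraries, and LLC tumor 1 was the highest. The log2 fold change was 0.96 ± 0.14 against LLC blood and 0.95 ± 0.14 against healthy blood (edgeR adjusted p = 0.00032 and 0.00029). Both calls held in each of the 18 alternative fits. The gene lies at chr17:31520115-31531326 (GRCm38.p6) and overlaps no other RefSeq gene. Gene counts do not separate its isoforms.

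Complex II split by subunit. Sdhd, a membrane anchor that holds the heme, had 106, 111 and 116 CPM in healthy blood, 104, 103 and 111 CPM in LLC blood and 157, 123 and 129 CPM in LLC tumor. It rose in tumor by a log2 fold change of 0.36 ± 0.10 against LLC blood (edgeR adjusted p = 0.0084) and 0.29 ± 0.10 against healthy blood (edgeR adjusted p = 0.022). The other anchor, Sdhc, did not pass (0.03 ± 0.06 against LLC blood, edgeR adjusted p = 0.68). Sdha fell to 163, 166 and 168 CPM in LLC tumor, by 0.25 (SE 0.06, edgeR adjusted p = 0.0069) against LLC blood. Against healthy blood its log2 fold change was -0.08 ± 0.06 (edgeR adjusted p = 0.28). Sdhb, the iron-sulfur subunit, fell by 0.23 (SE 0.08) in each tumor comparison (edgeR adjusted p = 0.027 and 0.026). The Sdhb call against LLC blood was lost without LLC tumor 2, LLC tumor 3 or healthy blood 2, and with RLE factors, DESeq2 or only the 6 libraries. Its call against healthy blood was lost without LLC tumor 2, LLC tumor 3 or healthy blood 3, and with RLE factors. The Sdhd call against healthy blood was lost without LLC blood 2, healthy blood 1 or healthy blood 2, on library totals and with no filter on low counts.

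In complex III, Uqcrc1, a core protein, had 174, 171 and 172 CPM in healthy blood, 204, 194 and 178 CPM in LLC blood and 145, 130 and 140 CPM in LLC tumor. It fell by 0.47 (SE 0.07, edgeR adjusted p = 0.00043) against LLC blood and by 0.31 (SE 0.07, edgeR adjusted p = 0.0042) against healthy blood. Its partner Uqcrc2 did not pass in either (-0.21 ± 0.10 and -0.20 ± 0.10, edgeR adjusted p = 0.11 both times). Uqcr11, a small subunit, also fell in both (-0.37 ± 0.13 and -0.51 ± 0.13, edgeR adjusted p = 0.031 and 0.0065). The Uqcr11 call against LLC blood was lost without LLC blood 3, LLC tumor 2, LLC tumor 3 or healthy blood 2, and with RLE factors, DESeq2 or only the 6 libraries. Uqcrh, with 157, 103 and 119 CPM in LLC tumor, fell against healthy blood (-0.48 ± 0.14, edgeR adjusted p = 0.013) and did not pass against LLC blood (0.15 ± 0.14, edgeR adjusted p = 0.38).

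The 11 common subunits of complex IV showed no call in LLC tumor against LLC blood by edgeR, and none at unadjusted p under 0.05. Of all tested genes 31.7% fell and 29.6% rose there. DESeq2 called none of the 11, and upper-quartile factors and limma-voom each called 1 lower. Cox4i1, the regulatory subunit found in most tissues, had 251, 227 and 254 CPM in LLC blood and 284, 219 and 233 CPM in LLC tumor (0.01 ± 0.11, edgeR adjusted p = 0.96). Cox5a and Cox5b, which cover the catalytic core on the matrix side, had log2 fold changes of 0.07 ± 0.11 and -0.00 ± 0.10. On library totals 6 of the 11 were called lower, with a median of -0.20 where all genes had -0.23. Against healthy blood 2 of the 11 fell in LLC tumor, where 33.0% of all tested genes fell. These were Cox7a2l by 0.64 (SE 0.09, edgeR adjusted p = 0.00015) and Cox6c by 0.29 (SE 0.10, edgeR adjusted p = 0.022). The Cox6c call was lost without LLC tumor 2, LLC tumor 3 or healthy blood 3.

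In complex V the head subunits went in both directions. Atp5b, the catalytic beta subunit, had 505, 512 and 499 CPM in healthy blood, 562, 576 and 581 CPM in LLC blood and 730, 637 and 662 CPM in LLC tumor. The 3 groups did not overlap. The tumor difference was 0.42 ± 0.08 against healthy blood (edgeR adjusted p = 0.0014) and 0.24 ± 0.08 against LLC blood (edgeR adjusted p = 0.028). The call against LLC blood was lost in 10 of 18 alternative fits, among them those without any single LLC blood library, without LLC tumor 3, healthy blood 1 or healthy blood 3, and on library totals. Atp5a1, its partner in the head, fell in LLC tumor against LLC blood by 0.24 (SE 0.08, edgeR adjusted p = 0.027) to 565, 507 and 528 CPM, a call lost in 7 of 18 fits, among them those without LLC blood 3, LLC tumor 2, LLC tumor 3 or healthy blood 2. Against healthy blood its log2 fold change was -0.01 ± 0.08. Atp5d, the delta subunit of the central stalk, rose by 0.30 (SE 0.09, edgeR adjusted p = 0.017) against LLC blood, a call lost without LLC blood 2 or 3, on library totals and with no filter on low counts.

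Atp5sl had the largest decrease with a mean of at least 20 CPM. Its older name follows ATP synthase, but it is the assembly factor Dmac2 of the complex I membrane arm. It had 43.2, 40.7 and 41.9 CPM in healthy blood, 41.0, 38.2 and 36.6 CPM in LLC blood and 15.5, 14.5 and 12.3 CPM in LLC tumor. The tumor libraries lay far below both blood groups, with a log2 fold change of -1.45 ± 0.10 against LLC blood and -1.57 ± 0.10 against healthy blood (edgeR adjusted p = 2.5e-06 and 1.3e-06). It lies at chr7:25619414-25625550 (GRCm38.p6), overlaps Gm38969, and strand use in the counting is not stated. Atp5s, which is not a subunit by its known role either, stayed at or under 2.50 CPM.

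Among the 84 genes Cox6b2 and Atp5sl had the largest called decreases in LLC tumor against healthy blood, followed by complex I genes. Ndufc2 of the membrane arm had 48.2, 51.2 and 58.8 CPM in healthy blood, 39.7, 39.2 and 39.2 CPM in LLC blood and 34.6, 24.2 and 27.1 CPM in LLC tumor. The 3 groups did not overlap, and it fell by 0.89 (SE 0.13, edgeR adjusted p = 0.00028) from healthy blood to tumor. Ndufb3 fell by 0.85 (SE 0.12, edgeR adjusted p = 0.00016) and Ndufs7 by 0.83 (SE 0.10, edgeR adjusted p = 6.2e-05). Ndufb4, an accessory membrane arm subunit, had 32.7, 36.2 and 35.7 CPM, then 27.8, 26.7 and 28.2 CPM, then 23.0, 21.8 and 21.7 CPM. It fell in all 3 comparisons, by 0.34, 0.32 and 0.65, with no overlap between any groups (edgeR adjusted p = 0.012, 0.0060 and 6.4e-05). Ndufb4 was chosen after its values were seen. Ndufc2 was also called in all 3 comparisons.

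Tissue isoforms of complex IV subunits were measured at low levels. Cox4i2, the lung and hypoxia isoform of Cox4i1, had 0 counts in all 6 blood libraries and 2.83, 0.977 and 1.97 CPM in LLC tumor. Against a floor of 3 counts per library it was at least 9.52-fold higher than in LLC blood and at least 10.2-fold higher than in healthy blood. Cox7a1, the heart and muscle isoform of Cox7a2, had 0.415, 0.119 and 0.534 CPM in healthy blood, 0.182, 0.389 and 0.603 CPM in LLC blood and 2.15, 1.69 and 1.88 CPM in LLC tumor (log2 fold change 2.17 ± 0.52 against LLC blood). Cox6b2, the testis isoform of Cox6b1, went down from 7.82, 4.57 and 6.00 CPM in healthy blood and 5.28, 4.54 and 5.01 CPM in LLC blood to 1.36, 1.60 and 1.79 CPM (-1.63 ± 0.26 against LLC blood, edgeR adjusted p = 0.00043). The Cox6b2 calls held in every alternative fit that tested the gene. Cox7b2, Cox8b and Cox8c had no count in any library, and Cox6a2 had 0.356 CPM in healthy blood 2 and 0 in the 8 others.

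Ndufa4 carries a complex I name but is now counted as a subunit of complex IV. Its paralogs Ndufa4l2 and AA467197 (also called Nmes1) can take its place under low oxygen or inflammation. Ndufa4 had 95.9, 105 and 110 CPM in healthy blood, 88.9, 87.8 and 98.1 CPM in LLC blood and 80.2, 64.0 and 69.4 CPM in LLC tumor. The tumor libraries lay below all blood libraries (-0.36 ± 0.10 against LLC blood and -0.54 ± 0.10 against healthy blood, edgeR adjusted p = 0.0092 and 0.00087). Ndufa4l2 had 0 counts in blood and 1.02, 1.24 and 0.715 CPM in LLC tumor, at least 4.91-fold higher than in LLC blood, and was not tested because of its low counts. AA467197 had 1.11, 0.534 and 1.13 CPM in healthy blood, 0.273, 0.713 and 0.603 CPM in LLC blood and 138, 58.5 and 61.8 CPM in LLC tumor. It rose by a log2 fold change of 7.24 ± 0.48 (edgeR adjusted p = 2.1e-06). Levels of different genes are not per length and are not set against each other.

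Markers of other cells, as CPM of library totals, were set beside the low isoforms, which are TMM-scaled. The 4 fibroblast markers summed to 841 CPM in LLC tumor 1 and 3255 and 3646 CPM in LLC tumor 2 and 3, while Cox4i2 was highest in LLC tumor 1. In LLC blood 1, with 404 CPM of these markers, Cox4i2 and Ndufa4l2 were at 0. The mix of markers differed, with Col1a1 at 212 and Col3a1 at 57.2 CPM in LLC blood 1. In LLC tumor Col1a1 was at 13.5 to 129 CPM and Col3a1 at 713 to 3099 CPM. The 4 epithelial tumor cell markers summed to 10.3 to 43.0 CPM in LLC tumor, with Krt19 and Epcam at or under 0.26 CPM. Krt8 reached 6.32 to 13.7 CPM and Krt18 3.97 to 34.8 CPM there, and both stayed at or under 0.43 CPM in blood. The 4 endothelial markers summed to 9.93 to 13.7 CPM in LLC tumor, with Cldn5 at or under 0.44 CPM and Tie1 at or under 0.605 CPM. Kdr was at 5.94 to 10.7 CPM in LLC tumor, highest in LLC tumor 1, and at most 1.21 CPM in blood. The 6 pericyte and smooth muscle markers summed to 13.7 to 23.7 CPM in LLC tumor and 11.9 to 20.2 CPM in blood, with Rgs5 at 0 in LLC tumor 1 and 2. Cspg4 was at 7.40, 13.9 and 4.06 CPM in LLC tumor and at most 0.50 CPM in blood. Acta2 went the other way, from 8.65 to 14.4 CPM in blood to 4.09 to 6.18 CPM in LLC tumor. The part of such cells in the isoform levels was not tested.

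**Figure D4:**
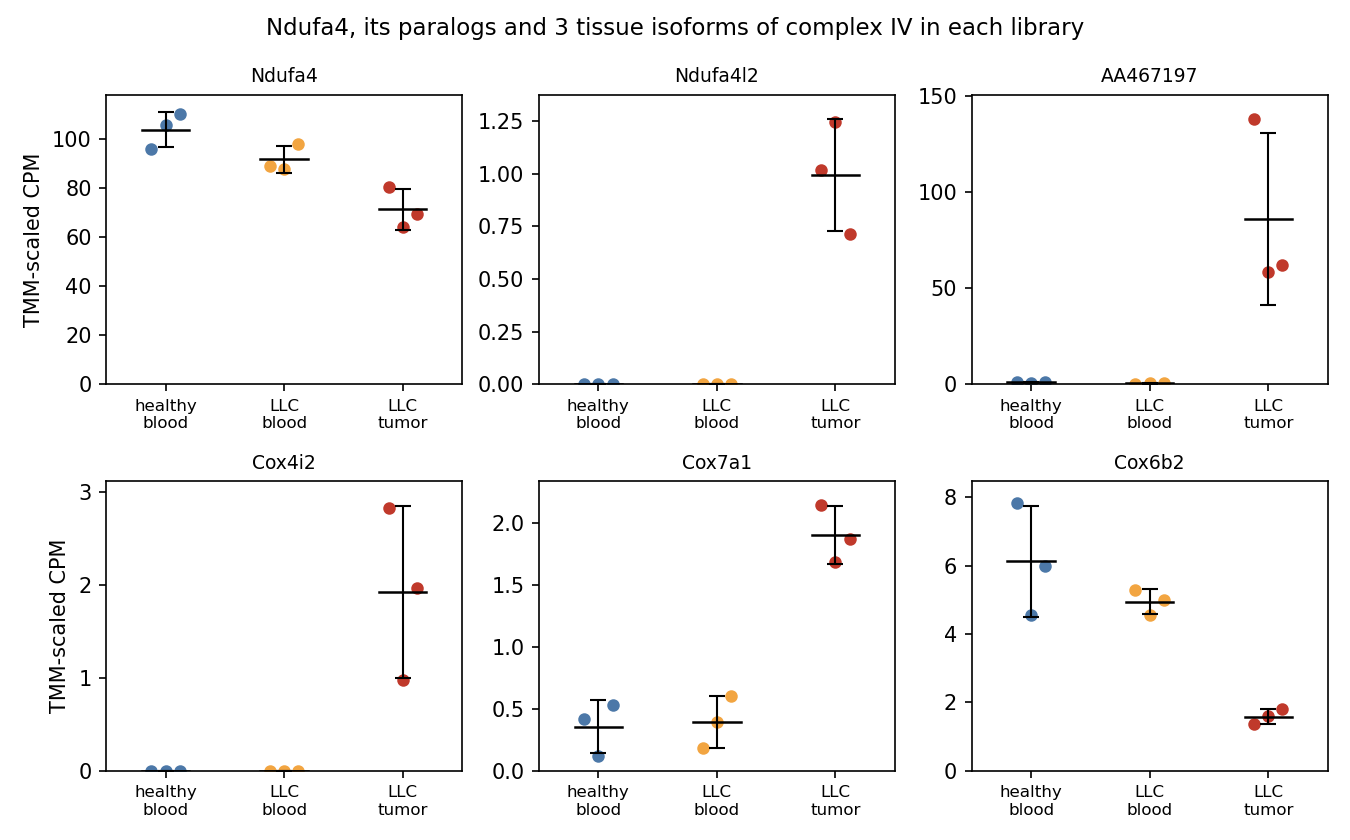
TMM-scaled CPM of Ndufa4, its paralogs Ndufa4l2 and AA467197, and the complex IV isoforms Cox4i2, Cox7a1 and Cox6b2 in each library, each panel on its own axis from 0. Points are libraries, and bars are the mean and SD over 3 libraries. The tumor libraries are lower than blood for Ndufa4 and Cox6b2 and higher for the other 4 genes.

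Genes that work beside the subunits were read from lists chosen with earlier results of these data known, so the list counts are a description. Over all tested genes 29.6% rose and 31.7% fell in LLC tumor against LLC blood, 33.5% and 33.0% against healthy blood, and 14.0% and 9.61% in blood, and the counts below are read against these shares. Of 10 genes listed as Ndufa4 paralogs and hypoxia partners, 8 rose and 1 fell in LLC tumor against LLC blood. The glucose carrier Slc2a1, the mitophagy receptor Bnip3, Hif1a, Ldha, which makes lactate, and Pdk1, which holds pyruvate back from the mitochondria, had log2 fold changes of 4.83, 4.77, 2.72, 2.49 and 2.28. Higd1a rose by 1.82 and the protease Lonp1 by 0.82 on the log2 scale, and Higd2a fell by 0.46. Bnip3l did not pass (0.19 ± 0.12, edgeR adjusted p = 0.20). Between healthy blood and LLC blood 1 of the 10 rose (Lonp1, 0.25) and 1 fell (Higd2a, -0.49). The Lonp1 call was lost without any single healthy blood library and the Higd2a call without healthy blood 1, and both without LLC blood 2 or 3.

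Of 47 assembly factors 5 rose and 15 fell in LLC tumor against LLC blood and 4 and 24 against healthy blood. Against LLC blood that is 10.6% higher and 31.9% lower, and the lower share is near that of all genes. Ndufaf7, a methyltransferase for complex I, fell by 1.99, Surf1 of complex IV fell by 0.94, and the copper chaperone Cox17 rose by 1.16 on the log2 scale. In blood 3 rose and 2 fell, among them Lrpprc (0.59) and Pet100 (-0.52), whose calls were lost without any single healthy blood library and without LLC blood 2 or 3. Of 77 mitochondrial ribosomal protein genes 6 rose and 37 fell in LLC tumor against LLC blood, 8 and 42 against healthy blood, and 1 and 5 in blood. The lower shares were 48.1%, 54.5% and 6.49%, the last below that of all genes. Mrpl37, Mrpl28 and Mrps25 fell by 0.71, 0.69 and 0.66. Of 22 tested import genes 4 rose and 5 fell against LLC blood, 5 and 10 against healthy blood and 0 and 2 in blood, with Tomm20 and Timm17a up by 0.94 and 0.80 and Timm10b down (-0.70) against LLC blood.

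Of 12 subunits and carriers outside the name rule 4 rose and 1 fell in LLC tumor against LLC blood, 4 and 3 against healthy blood, and 0 and 1 in blood. The ATP synthase subunit Usmg5 rose by 0.60, the phosphate carrier Slc25a3 by 0.55, the ADP/ATP carrier Slc25a4 by 0.47 and the synthase inhibitor Atpif1 by 0.39 (a call lost on library totals), while Etfb, of the electron transfer flavoprotein, fell by 0.66. Of 13 citric acid cycle genes 2 rose and 5 fell against LLC blood, 5 rose and 5 fell against healthy blood, and 2 rose in blood (Ogdh, 0.32, and Cs, 0.26). Both blood calls were lost without any single healthy blood library and without LLC blood 2 or 3. Fumarase Fh1 fell by 0.90 against LLC blood. Of 14 tested regulators of mitochondrial gene expression 1 rose and 5 fell in each tumor comparison, and none passed in blood by edgeR (2 higher and 3 lower at unadjusted p under 0.05). Tfam, which packs mitochondrial DNA and starts its transcription, fell by 0.90 and Tfb2m by 0.67 against LLC blood, and Myc rose by 4.88. Nrf1 and Yy1, whose motifs were searched above, did not pass in any comparison, with log2 fold changes between -0.04 and 0.18.

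Subunit genes are short, and fold changes in these data varied with the genomic span of a gene. The median span was 7279 bases among the 79 tested subunit genes and 22272 bases among 12276 tested genes with coordinates, and 58 of the 79 lay among the shortest 3 of 10 equal bins of genes. Between LLC blood and healthy blood the median log2 fold change of all genes ran from -0.23 in the shortest bin to 0.22 in the longest. From healthy blood to LLC tumor it ran from -0.28 to 0.47, and in LLC tumor against LLC blood from -0.06 to 0.12. A smooth trend over span (lowess) was -0.13, -0.14 and -0.26 at the subunit genes' median, in the order of the 3 comparisons above (LLC blood, tumor against LLC blood, tumor against healthy blood). In the second shortest bin this trend was -0.16, -0.14 and -0.28, where the median of all genes was -0.17, -0.04 and -0.19. Tumor medians with the trend subtracted are therefore not centred on 0 for genes of such span. With the trend subtracted the median of complex I was -0.03 in LLC blood against healthy blood, and those of complexes III, IV and V were 0.03, 0.01 and 0.03. For LLC tumor against healthy blood the complex I median was then -0.14, complex IV 0.14 and complex V -0.01. The part of gene span or transcript length in the calls was not tested further.

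**Figure D5:**
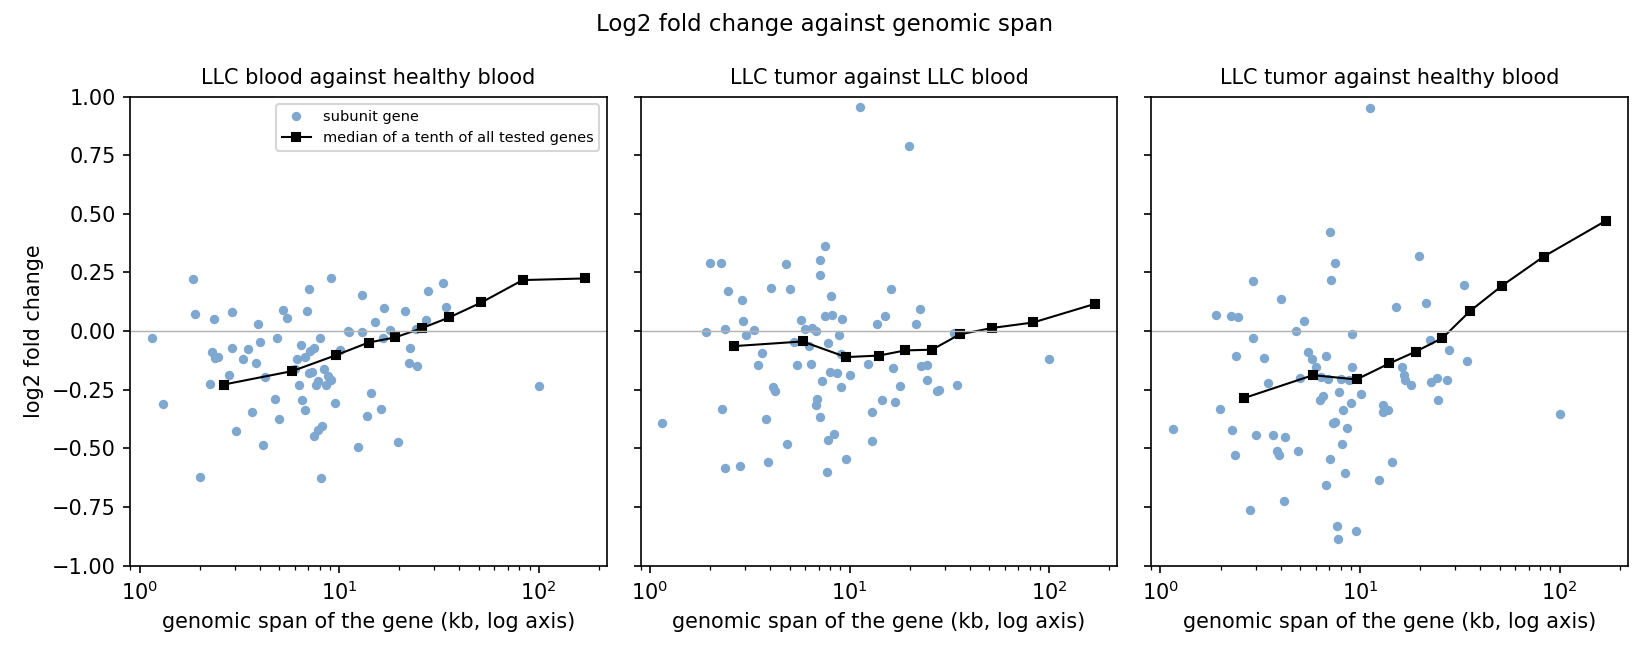
Log2 fold change against genomic span on a log axis. Blue points are subunit genes with log2 fold changes between -1 and 1, and black squares are medians of 10 equal bins of all tested genes with coordinates. In the left and right panels the black line rises with span, and most subunit genes lie in its short, negative part.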

How the data were processed

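RNA-seq libraries of sorted monocytes (3 healthy blood, 3 LLC blood, 3 LLC tumor) were analysed. The authors deposited estimated counts per gene symbol (expected counts, not normalized) and a CPM table of 10693 genes, made from RNA prepared with a TruSeq RNA kit, per the labels. The submitters' processing notes name STAR 2.6.1d, Salmon 1.9.0, edgeR and the mm10 build for the series, with no role or order. In the deposited CPM columns 100% of the values were whole multiples of 1 read within 0.01 reads, and the reads so recovered equal the rounded estimated counts (largest difference 0.5), and 75 of the 84 genes are in that table. Column heads of the blood libraries carry BM, read as blood monocyte from the titles. Whether counting used strand is not stated, and 27 of the 84 genes overlap another RefSeq gene. In 12 of the 84 some counts were not whole, as when reads are shared between genes.

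Counts were rounded and fitted with edgeR 4.0.16 (R 4.3.3) in 1 quasi-likelihood model over all 9 libraries with group as the only term, TMM factors and filterByExpr. P-values were adjusted by Benjamini-Hochberg over all 12337 tested genes. The fit was tested on simulated data. Levels were planned as CPM of library totals and are given as TMM-scaled CPM, with sums on both scales. Cell markers and the mean of 20 CPM stayed on library totals. A group with 0 counts was set to a floor of 3 counts per library, which covers counting error only. Alternatives were other factors, DESeq2 1.42.0, limma-voom (limma 3.58.1), no filter, only the compared libraries, a replicate block, each library left out, and a lowess trend on genomic span subtracted, since no protein table was given for the planned protein length. Named genes were core and isoform subunits by role, in each comparison the 3 largest called changes per direction among genes averaging 20 CPM or more, and at most 3 genes per other list, with exceptions stated in the text, and 1 result that falls under this rule is not reported here. The members and lists were chosen with earlier results of these data known, and the pericyte markers after seeing the data. The labels state no pairing, and none was fitted in the main model. Deviations from the group means correlated at -0.078, 0.12 and -0.137 in same-numbered LLC blood and LLC tumor libraries. With 3 libraries per group these values cannot tell whether blood and tumor samples came from the same mice.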

Additional observations from a re-analysis of the deposited data

How the results depend on the processing

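Of 432 recomputed counts and medians 378 stayed within their limits, and of 7045 recomputed single-gene results 6327 kept their side of the threshold and their direction, 368 lost the call and 346 gained it. The 4 reversals were all in LLC tumor against LLC blood on library totals only, where Cox4i1 (-0.20), Cox6a1 (-0.20), Cox7b (-0.20) and Uqcr10 (-0.20) were called lower after values near 0. The cause of the changes below was not tested, apart from stricter thresholds, which call fewer genes by construction. In LLC blood against healthy blood the higher calls (0) became 3 with DESeq2, 2 on library totals, 4 with limma-voom and 3 with only the 6 libraries, and 0 to 1 with a library left out. The lower calls (12) became 29 with limma-voom, 27 with only the 6 libraries, 20 with upper-quartile factors, 3 at adjusted p under 0.01 and 0 at 2-fold, and 3 to 33 with a library left out. Complex medians there moved to -0.0062 (II) and -0.1919 (IV) with upper-quartile factors, -0.1933 (IV) with only the 6 libraries, and -0.213 (III) without genes of non-whole counts. With the gene span trend subtracted they were -0.0271 (I), 0.0329 (III), 0.0097 (IV) and 0.0305 (V). With a library left out they ran from -0.0062 to 0.0621 (II), from -0.2035 to -0.1008 (III), from -0.224 to -0.1093 (IV), from -0.1458 to -0.0745 (V). In LLC tumor against LLC blood the lower calls (23) became 50 on library totals, 36 with limma-voom, 13 at adjusted p under 0.01 and 2 at 2-fold, and 17 to 36 with a library left out. The higher calls (6) became 2 at 2-fold and 5 to 11 with a library left out. Medians moved on library totals to -0.4245 (I), -0.2976 (II), -0.1835 (IV) and -0.2601 (V), while complex III went from 0.0251 to -0.187, a change of sign within the spread between libraries, and to 0.0978 (V) with the span trend subtracted. In LLC tumor against healthy blood the lower calls (36) became 60 on library totals, 55 with limma-voom, 55 with upper-quartile factors and 2 at 2-fold, and 28 to 56 with a library left out. The higher calls (5) became 8 with limma-voom and 2 at 2-fold. Medians moved to -0.5169 (I) and -0.3816 (V) on library totals and to -0.1449 (I), 0.1407 (IV) and -0.012 (V) with the span trend subtracted, and complex V ran from -0.3653 to -0.1503 with a library left out. A replicate block gave 0 higher and 10 lower, 5 and 22, and 6 and 36 calls in the 3 comparisons, and repeated 10 of 12, 27 of 29 and 41 of 41 calls. Same-numbered LLC blood and LLC tumor libraries correlated at -0.078, 0.12 and -0.137, which cannot tell whether they came from the same mice. With Ndufa4 and Ndufa4l2 moved to complex IV no median left its limits. Depth limited Ndufa4l2 and the isoforms under 3 CPM.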
